A study of Danio rerio with 6 samples.

Results

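The genes described here were found in sorted atrial cardiomyocytes (CMs) of zebrafish embryos at 48 hours post fertilization (hpf) and not at 72 hpf. A gene was taken when each of the 3 libraries of 48 hpf held more than 3 raw counts of it and each of the 3 libraries of 72 hpf held 3 or fewer. Of the 23000 genes in the table, 213 met these limits. From these, 6 genes were left out by name (spi1b, ncf1, ptpn6, plek, fli1a and rbfox3a) and 5 by a KEGG term for lysosome, apoptosis or cytokine receptor interaction (il6r, il21, pik3r5, zmp:0000000936 and cxcr3.2), which left 202 genes. The stage counts chose these genes, so the difference between the stages is given below as a description and is not tested on them.

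Both stages were wild-type embryos that carried 3 reporters: myh6:mTagBFP2 for atrial CMs, myh7:mCherry-NTR, which is high in the ventricle, and 7XTCF-Sia:eGFP for Wnt/β-catenin activity. Cells from dissected and pooled hearts were sorted for mTagBFP2 without eGFP and with low or no mCherry in several sorting sessions. Of the libraries of either stage, replicates 1 and 2 came from a BD FACSAria III and a BigFoot sorter and replicate 3 from the BigFoot alone. Each library is thus a pool of hearts, and nothing in the sources ties it to single animals. P-values measure only the spread between these libraries. The paper describes embryonic atrial CMs as low in number and gives a sort purity that is short of complete. Quality control of the RNA was skipped because its amount was low. Whether a gene without counts in a library was absent from the cells or was missed was not tested.

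Library totals were 3577234 to 4541886 counts at 72 hpf, against 3694451 to 5629941 at 48 hpf, at which 3 counts correspond to 0.66 to 0.84 and 0.53 to 0.81 CPM, that is, counts as a rate of all counts in the library. Genes listed as atrial CM markers were found in all 6 libraries, with 11 of 11 above 3 counts in each. The summed level of that list was 11880, 10740 and 10620 CPM in 72 hpf replicates 1 to 3. In 48 hpf replicates 1 to 3 it was 8758, 8687 and 10940 CPM. A list of ventricular CM markers was also found in every library, at 3164, 2873 and 3160 CPM in 72 hpf replicates 1 to 3. In 48 hpf replicates 1 to 3 that second list was at 3625, 3123 and 4232 CPM. What either list says of the chamber of the cells was not tested.

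The zebrafish atrium at these stages is a thin sheet of CMs lined by endocardium, lying in a pericardial cavity close to the pharyngeal arches. Blood, with its primitive macrophages and neutrophils, passes through it, and neurons, pharyngeal mesoderm and skin lie near the heart when it is dissected. In bulk RNA, fewer cells of a type and less RNA per cell cannot be told apart.

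The 202 genes together held 57, 115 and 61 counts in 72 hpf replicates 1 to 3, against 7802, 11403 and 10712 counts in 48 hpf replicates 1 to 3. As a share of the library these were 12.6, 25.8 and 17.1 CPM at 72 hpf and 1652, 2025 and 2899 CPM at 48 hpf. No count exceeded 3 in any 72 hpf library, which the choice of genes fixed, and 101 of the 202 genes had 0 counts in all 3 of them. A further 51 genes had a highest 72 hpf count of 1, 26 of 2 and 24 of 3. Most of the genes were shallow at 48 hpf as well: 119 had 10 or more counts in every 48 hpf library, 78 had 20 or more, 23 had 50 or more and 3 had 100 or more. The highest count of any of them in a single 48 hpf library was 451.

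**Figure D1:**
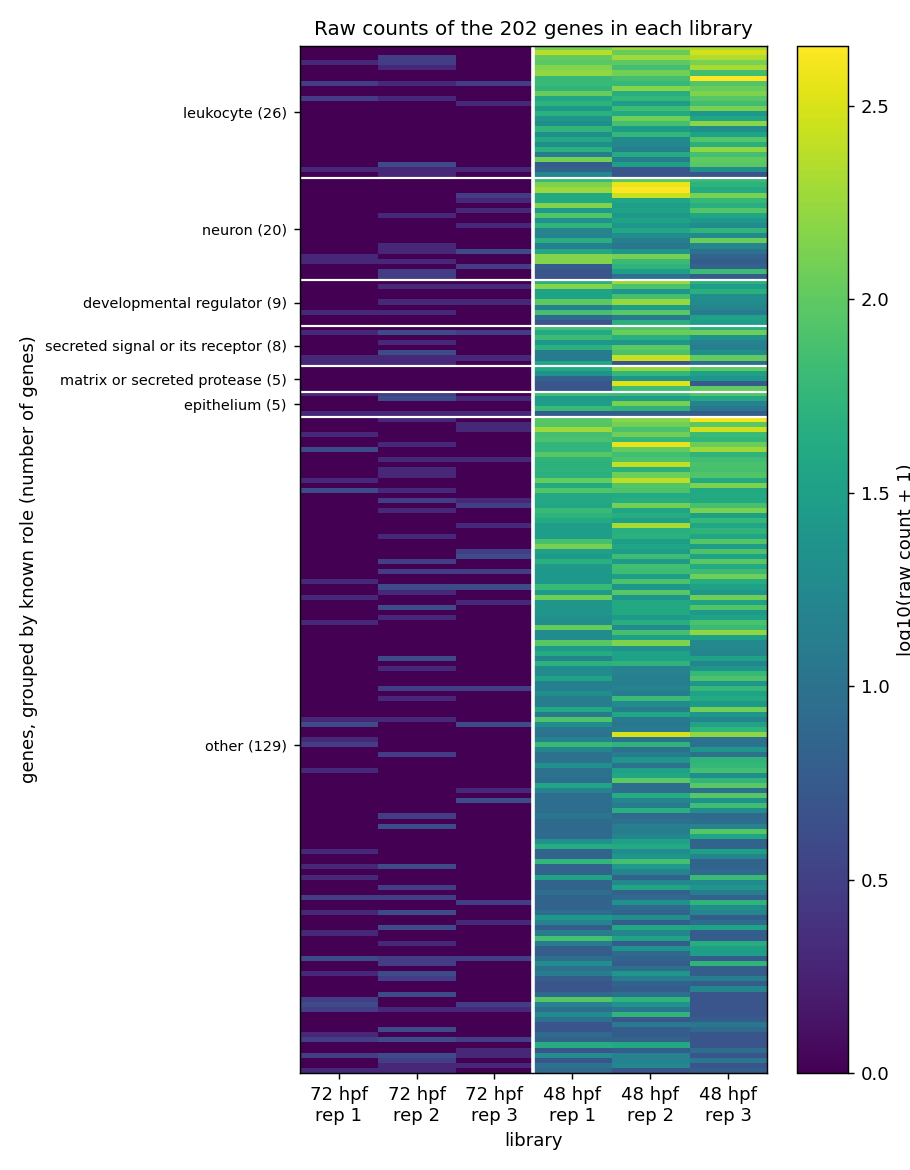
Raw counts of the 202 genes (rows, grouped by known role, ordered within a role by their lowest 48 hpf count) in the 6 libraries (columns, 72 hpf on the left), coloured by log10(raw count + 1). The 72 hpf columns hold at most 3 counts of any gene, while the 48 hpf columns run to 451 counts and differ from each other within most rows.

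The same limits with the stages exchanged gave 23 genes, against 213 before the removals. As shares, 0.196% of the 11732 genes above 3 counts in all 72 hpf libraries were at 3 or fewer in all 48 hpf libraries, against 1.70% of the 12503 genes above 3 counts in all 48 hpf libraries. The genes of the exchanged set also had fewer counts, with a median lowest 72 hpf count of 7, against a median lowest 48 hpf count of 13 for the 202 genes. The strict requirement of all 3 libraries removed most candidates on either side. Genes at 3 or fewer counts throughout 48 hpf but above 3 counts in exactly 1, 2 or 3 libraries of 72 hpf numbered 1006, 164 and 23, and those at 3 or fewer throughout 72 hpf but above 3 in 1, 2 or 3 libraries of 48 hpf numbered 1640, 599 and 213.

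**Figure D2:**
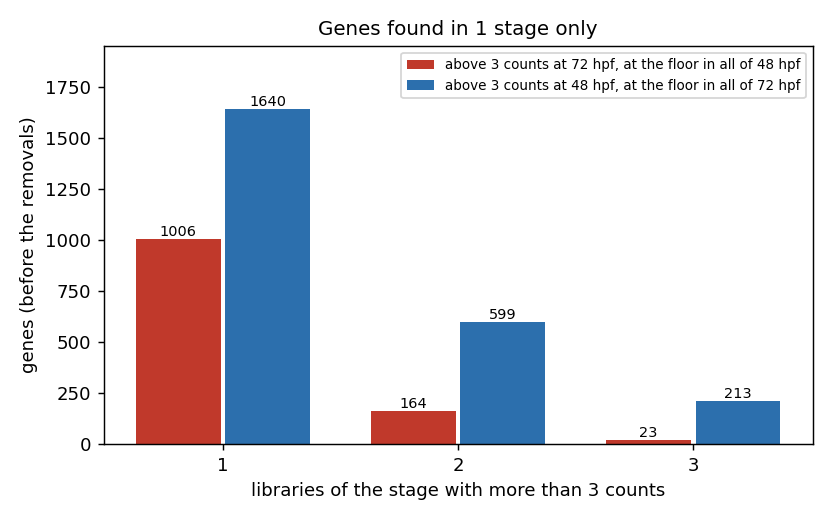
Number of genes (vertical axis) with more than 3 counts in 1, 2 or 3 libraries of a stage (horizontal axis) and 3 or fewer in every library of the other, before the removals. Bars on the left of each pair are genes found at 72 hpf (1006, 164 and 23) and bars on the right genes found at 48 hpf (1640, 599 and 213).

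Genes known mainly from leukocytes formed the largest of 6 sets with a known role, assigned by hand, with 26 of the 202. Their summed level was 1.32, 2.69 and 1.12 CPM in the 72 hpf libraries and 359, 303 and 827 CPM in the 48 hpf libraries, and 17 of the 26 had 0 counts at 72 hpf. Samsn1a (chromosome 15, 29564364 to 29586747, danRer11), an adaptor protein of haematopoietic cells, had 0, 0 and 0 counts in 72 hpf replicates 1 to 3 and 121, 189 and 211 counts in 48 hpf replicates 1 to 3, the deepest coverage of any member in its weakest library. Nrros (chromosome 24, 28410963 to 28419444), which tethers latent TGF-β on myeloid cells in mice, had 0, 0 and 0 counts at 72 hpf, against 241, 108 and 307 at 48 hpf. By mean 48 hpf CPM against a floor of 3 counts per library, samsn1a was at least 53.6-fold lower at 72 hpf. Nrros was at least 70.6-fold lower, the highest such bound among the 202 genes. Such bounds, here and below, rest on the mean of the 48 hpf libraries and do not cover the spread between them.

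Cell surface receptors and adhesion molecules of leukocytes came next. Itgb2 (chromosome 9, 44961138 to 44983666), the β2 integrin chain shared by the leukocyte integrins, had 1, 2 and 0 counts at 72 hpf, against 94, 98 and 131 at 48 hpf. The pooled ratio of 48 hpf over 72 hpf was 96.4, with a 95% exact counting interval of 32.7 to 470. Such intervals, here and below, cover counting error only and not the spread between libraries. The stage counts chose the genes, so the intervals are no test of a difference. Of the 3 integrin genes among the 202, itgb2 was the only one with a count at 72 hpf. Itgae.1 and itgb7, the zebrafish counterparts of the chains that pair into a lymphocyte integrin in mammals, had 0 counts in each 72 hpf library. At 48 hpf itgae.1 had 59, 74 and 441 counts and itgb7 had 49, 13 and 162, so both were highest in replicate 3.

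Adgrg3, an adhesion G protein-coupled receptor of granulocytes in mammals, had 0, 0 and 0 counts at 72 hpf, against 165, 123 and 70 at 48 hpf. Gpr183a, an oxysterol receptor that guides immune cells, had 0, 0 and 0 counts at 72 hpf, against 26, 67 and 129 at 48 hpf. The gene CABZ01041494.1, whose protein the deposited table names C5a anaphylatoxin chemotactic receptor 1, had 0, 0 and 0 counts at 72 hpf, against 108, 45 and 139 at 48 hpf. The order of the 48 hpf libraries thus differed among the receptors: adgrg3 was highest in replicate 1, the other receptors in replicate 3.

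Ligands of immune cells were fewer. Csf3b, a granulocyte colony stimulating factor, had 0, 2 and 0 counts at 72 hpf, against 102, 183 and 217 at 48 hpf (pooled ratio 225, interval 61.9 to 1862). Il16, a chemoattractant cytokine, had 2, 1 and 2 counts at 72 hpf, against 62, 59 and 87 at 48 hpf. It overlaps 3 genes on the opposite strand, and the kit used here keeps no strand. The paper's counting left out reads that overlapped several genes, so only reads outside shared exons could still come from a partner. This was not tested. The chemokine genes ccl35.1 and ccl34b.1 had 3 and 0 counts summed over the 72 hpf libraries, against 37, 56 and 91 counts and 20, 16 and 47 counts in the 48 hpf libraries. Their counterpart receptor family was represented by ccr12a, with 0, 0 and 0 counts at 72 hpf, against 20, 76 and 157 at 48 hpf.

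Complement was represented at several steps. C1qb and c1qc, which encode chains of the recognition molecule C1q and lie 2527 bases apart on the minus strand of chromosome 21 (22712307 to 22715297 and 22717824 to 22720381), had 0 counts in every 72 hpf library. At 48 hpf c1qb had 12, 42 and 71 counts and c1qc had 23, 115 and 35, so the neighbours did not follow each other across libraries: c1qb was highest in replicate 3 and c1qc in replicate 2. Another C1q chain gene, c1qa, was not in the group, because it had 17, 73 and 19 counts at 72 hpf, against 20, 67 and 49 at 48 hpf. C3a.6, 1 of the zebrafish genes for the central component C3, was not given a role here and is not among the 26. It had 0, 1 and 0 counts at 72 hpf, against 55, 356 and 114 at 48 hpf.

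Signalling and cytoskeletal genes of blood cells completed this set. Dok2, an adaptor below tyrosine kinases, had 0, 1 and 0 counts at 72 hpf, against 141, 72 and 200 at 48 hpf. Stx11a, the counterpart of a syntaxin needed for granule release by human cytotoxic cells, had 0, 0 and 0 counts at 72 hpf, against 53, 148 and 107 at 48 hpf. Wasb, an activator of actin branching that is lost in the human Wiskott-Aldrich immunodeficiency, had 0, 0 and 0 counts at 72 hpf, against 49, 41 and 25 at 48 hpf. The first 2 of these were clear of the 72 hpf libraries by more than 50 counts in every 48 hpf library, and wasb by 25.

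Sensors and regulators of innate immune signalling were also found. Tlr8b, an endosomal Toll-like receptor, had 0, 0 and 1 counts at 72 hpf, against 51, 30 and 69 at 48 hpf. Tank and tnip2, which encode adaptors in the pathways that lead to interferon and NF-κB, had 3, 1 and 0 counts and 0, 0 and 1 counts at 72 hpf, against 84, 81 and 40 counts and 30, 202 and 36 counts at 48 hpf. Irf3, the transcription factor at the end of such a pathway, had 0, 0 and 0 counts at 72 hpf, against 5, 7 and 30 at 48 hpf. Of 18 genes in a list of innate immune receptors and their partners, tlr8b was the only one that met the limits of the group. Tlr3 missed the floor, with 39, 115 and 0 counts at 72 hpf, against 53, 131 and 72 at 48 hpf. Tlr5b was found in every library, at 65 to 89 counts at 72 hpf, against 84 to 156 at 48 hpf.

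A wider list of leukocyte markers was read beside this set. Of its 65 genes, 24 were at 3 or fewer counts in all 72 hpf libraries, against 3 in all 48 hpf libraries, and 4 (itgb2, c1qb, c1qc and wasb) were among the 202 genes. For this and the later lists, the whole table also had more genes at 3 or fewer counts throughout 72 hpf than throughout 48 hpf. Of its 23000 genes, 3562 were at 3 or fewer in all 6 libraries. A further 1640, 599 and 213 were so throughout 72 hpf, with more than 3 counts in 1, 2 or 3 libraries of 48 hpf. With the stages exchanged these further genes numbered 1006, 164 and 23. The list counts are to be read against these numbers. The list summed to 177, 747 and 243 CPM in 72 hpf replicates 1 to 3 and to 1457, 1553 and 3150 CPM in 48 hpf replicates 1 to 3, with 13, 38 and 9 of its genes above 3 counts at 72 hpf, against 52, 53 and 51 at 48 hpf. The leukocyte part in the values of the 202 genes was not tested.

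One 72 hpf library decided which leukocyte genes entered the group. In 72 hpf replicate 2 the macrophage genes mpeg1.1, mfap4 and spi1a and the leukocyte actin regulator coro1a had 94, 144, 83 and 70 counts, while in 72 hpf replicates 1 and 3 none of them exceeded 2 counts. In the same library itgb2 had 2 counts and c1qb, wasb, ptpn6 and plek had 0. These 5 genes met the limits, which fixed such low values, so nothing is read from them. Of the 65 genes of the leukocyte list, 38 were above 3 counts in that library. With all libraries, 10 genes of the leukocyte list met the limits, counted before the removals. Without 72 hpf replicate 2 this number was 31, and leaving out any other library in turn gave 10 to 12. Over all genes, counted after the removals and so not on the same basis, 468 rather than 202 met the limits without 72 hpf replicate 2.

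The leukocyte set was uneven over the 48 hpf libraries as well. Of its 26 genes, 20 were highest in 48 hpf replicate 3, 4 in replicate 1 and 2 in replicate 2 (normalized counts), and the median gene had 54.1% of its summed 48 hpf normalized count in replicate 3. Among all 12503 genes above 3 counts at 48 hpf, 40.9% were highest in replicate 3. The list of erythroid markers was highest in the same library, at 829, 754 and 1673 CPM in 48 hpf replicates 1 to 3. At 72 hpf it was highest in replicate 2, at 802, 1267 and 790 CPM in replicates 1 to 3. Replicate 3 was the only library of 48 hpf sorted on a single instrument. The part of the sorter, or of blood cells carried along, in these values was not tested. Defining markers of neutrophils followed another order: mpx had 1, 0 and 0 counts at 72 hpf, against 232, 0 and 0 at 48 hpf, npsn had 0, 9 and 0 at 72 hpf and 351, 0 and 0 at 48 hpf, and lyz had 0, 2 and 0 at 72 hpf and 114, 5 and 1 at 48 hpf. These 3 genes were thus found in 48 hpf replicate 1 and hardly at all in the other libraries, and none of the 3 met the limits. Mmp9, also of the leukocyte list, had 0, 0 and 3 counts at 72 hpf, against 38, 138 and 1 at 48 hpf.

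**Figure D3:**
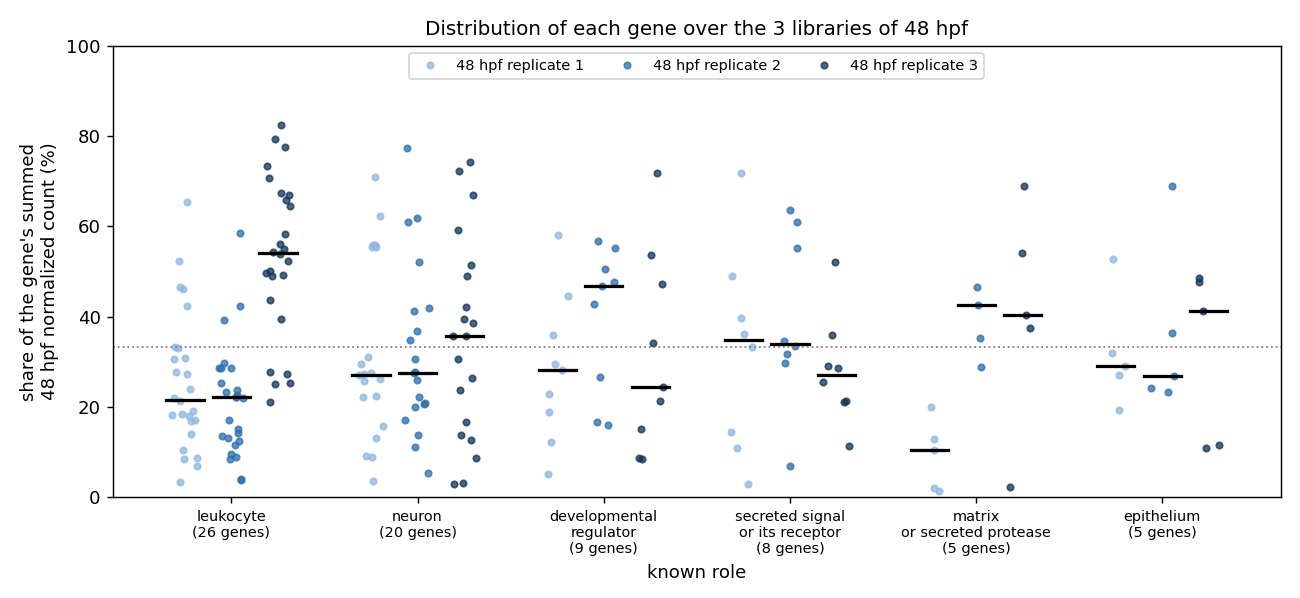
Share of each gene's summed 48 hpf normalized count held by each 48 hpf library (vertical axis, percent), for the 73 genes with an assigned role (1 point per gene and library). Black bars are medians and the dotted line is an equal share. Leukocyte genes have a median of 54.1% in replicate 3. All 5 matrix or secreted protease genes have their lowest share in replicate 1, as do 93 of all 202 genes.

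Genes of neurons were the second set, with 20 of the 202, from RNA-binding proteins of young neurons to receptors and channels. They summed to 0.44, 1.79 and 2.80 CPM in the 72 hpf libraries and to 256, 314 and 230 CPM in the 48 hpf libraries. They were spread over the 48 hpf libraries, with 6, 6 and 8 of the 20 genes highest in replicates 1, 2 and 3. Elavl3 (chromosome 3, 46800190 to 46818001), an RNA-binding protein that marks newly formed neurons, had 0, 0 and 0 counts at 72 hpf, against 135, 376 and 51 at 48 hpf, which places it at least 50.3-fold lower at 72 hpf. Gfra1a (chromosome 13, 20392656 to 20519001), a co-receptor for glial cell line-derived neurotrophic factor, had 0, 0 and 0 counts at 72 hpf, against 180, 451 and 41 at 48 hpf, at least 59.6-fold lower at 72 hpf. Both were lowest in 48 hpf replicate 3, where the leukocyte set was highest. In that library alone both genes would lie below these bounds, which rest on the mean.

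Synaptic genes were found as well. Slitrk6 (chromosome 1, 4101741 to 4154332), a transmembrane protein of synapse formation and of the inner ear, had 0, 0 and 0 counts at 72 hpf, against 60, 97 and 61 at 48 hpf. Its 48 hpf level was 15.5 ± 2.43 CPM (SD, n = 3), and its normalized counts differed by no more than 1.35-fold between libraries, so the libraries were close. Pacsin1b, a membrane-bending protein of synaptic endocytosis, had 0, 0 and 2 counts at 72 hpf, against 40, 274 and 132 at 48 hpf.

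Ligand-gated channels of 3 transmitters were present. Glra4a, a glycine receptor subunit, had 0, 0 and 0 counts at 72 hpf, against 140, 30 and 46 at 48 hpf. Gabrd, a GABA receptor subunit, had 0, 0 and 0 counts at 72 hpf, against 15, 38 and 53 at 48 hpf. GRIK2, a kainate-type glutamate receptor subunit, had 1, 0 and 0 counts at 72 hpf, against 146, 129 and 6 at 48 hpf. In normalized counts glra4a and GRIK2 were highest in 48 hpf replicate 1 and gabrd in replicate 3.

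Further neuronal genes included calb2b, the calcium buffer calretinin of interneurons, with 0, 1 and 0 counts at 72 hpf, against 84, 25 and 36 at 48 hpf, and kcnn1a, a calcium-activated potassium channel, with 0, 0 and 1 counts at 72 hpf, against 26, 34 and 86 at 48 hpf. Rbfox3b, a paralogue of the gene rbfox3a that was left out by name, had 0, 1 and 0 counts at 72 hpf, against 13, 10 and 16 at 48 hpf. For comparison, rbfox3a itself had 0, 2 and 1 counts at 72 hpf, against 380, 918 and 254 at 48 hpf. The remaining 10 neuronal genes had 0 to 3 counts in each 72 hpf library and 4 to 144 in each 48 hpf library.

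Most standard neuronal and glial markers did not behave like this set. Of 21 such genes, 14 were at 3 or fewer counts in all 72 hpf libraries, against 4 in all 48 hpf libraries. Of those 14, only elavl3 and rbfox3a were also above 3 counts in every 48 hpf library. The list summed to 155, 119 and 70.7 CPM at 72 hpf, against 260, 346 and 150 CPM at 48 hpf. This sum holds elavl3 and rbfox3a, which the limits chose, so nothing is read from its difference between the stages. Gap43, gng3 and gria2b, of growing axons and synapses, had 0 counts in all 72 hpf libraries and 53, 26 and 43 counts in 48 hpf replicate 1, with 0 in the other 48 hpf libraries. Sox2, of neural progenitors, had 1, 51 and 0 counts at 48 hpf. Elavl4, snap25a and snap25b, in contrast, were found in every library of both stages (elavl4 at 473, 405 and 150 counts at 72 hpf, against 407, 385 and 137 at 48 hpf). The motor and autonomic markers chata and phox2bb did not exceed 1 count in any library, while phox2a, another autonomic marker, had 27, 0 and 1 counts at 72 hpf, against 0 in every 48 hpf library. The part of neurons in the neuronal set was not tested.

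**Figure D4:**
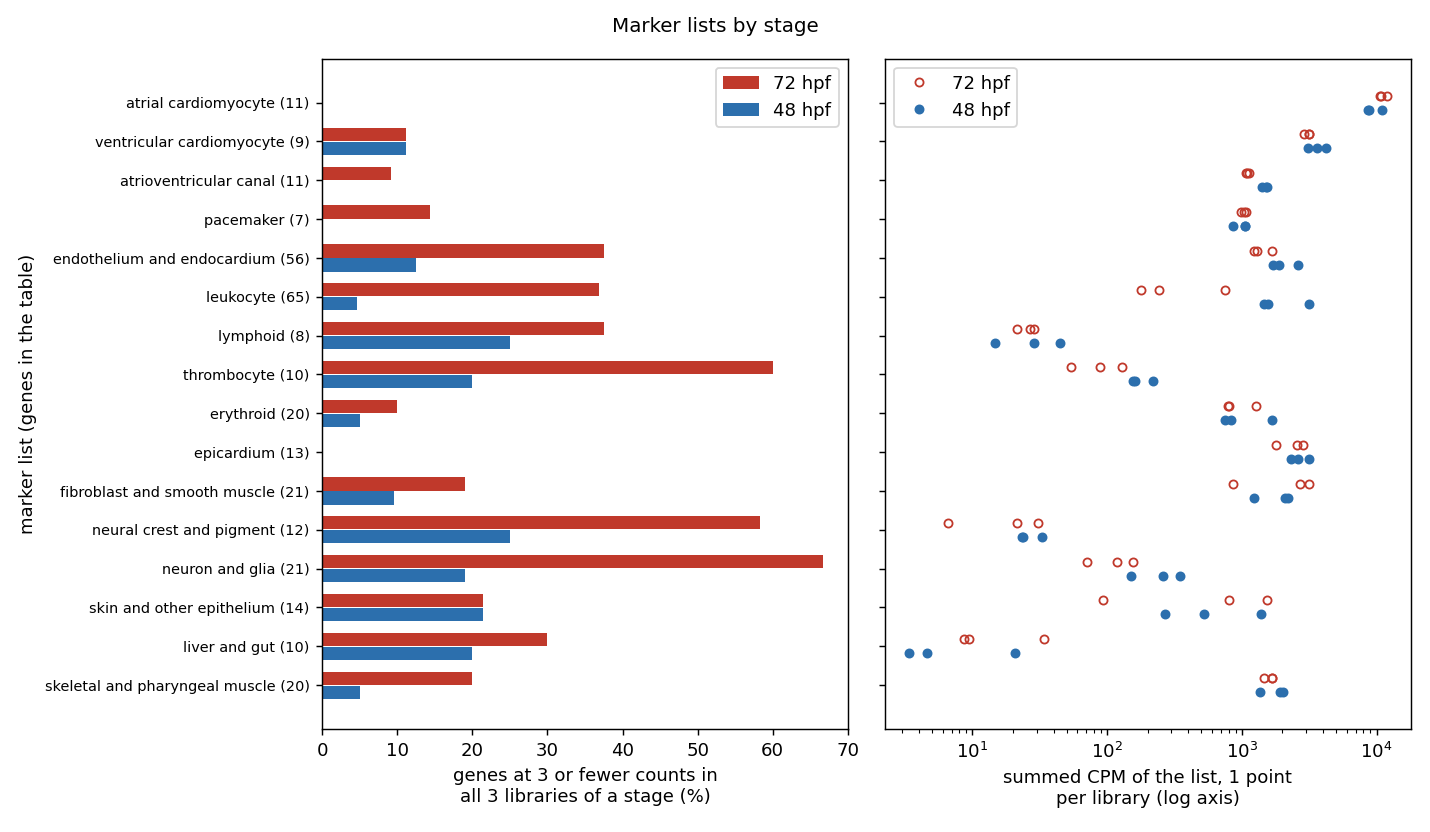
Marker lists of 16 cell types (rows, with the number of genes in the table) by stage, 72 hpf above 48 hpf in each row. Left, percent of genes at 3 or fewer counts in all 3 libraries of the stage. Right, summed CPM of the list in each library on a log axis. The 11 atrial CM markers are above 3 counts everywhere, while 24 of 65 leukocyte genes and 14 of 21 neuronal and glial genes are at 3 or fewer in all 72 hpf libraries, against 3 and 4 in all 48 hpf libraries. The whole table also has more such genes at 72 hpf than at 48 hpf.

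Developmental regulators formed a set of 9, of which 6 had 0 counts in every 72 hpf library. Tbx1 (chromosome 5, 15202495 to 15215483), a T-box factor of pharyngeal mesoderm and of the progenitors that add cells to the poles of the heart, had 0, 0 and 0 counts at 72 hpf, against 50, 179 and 50 at 48 hpf, at least 25.8-fold lower at 72 hpf. Foxc1a (chromosome 2, 686873 to 689047), a forkhead factor of mesenchyme and vessels, had 0, 0 and 0 counts at 72 hpf, against 34, 73 and 20 at 48 hpf. Both were highest in 48 hpf replicate 2, as were 6 of the 9 regulators. Over all genes above 3 counts in every 48 hpf library, 32.0% were highest in replicate 2.

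Myod1 (chromosome 25, 31421253 to 31423493), the master regulator of skeletal muscle, had 0, 1 and 1 counts at 72 hpf, against 144, 79 and 29 at 48 hpf (pooled ratio 113, interval 30.9 to 937). Six4a, a homeodomain factor that acts in muscle and sensory placodes, had 0, 0 and 0 counts at 72 hpf, against 34, 23 and 48 at 48 hpf. Neb, which encodes the thin filament ruler nebulin and was not given a role here, had 0, 3 and 3 counts at 72 hpf, against 60, 24 and 32 at 48 hpf. Of 20 skeletal and pharyngeal muscle genes, 4 were at 3 or fewer counts in all 72 hpf libraries, against 1 in all 48 hpf libraries, and their sum was 1672, 1472 and 1670 CPM at 72 hpf and 1919, 1365 and 2006 CPM at 48 hpf.

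Lin28a, an RNA-binding protein of early embryonic cells that blocks let-7 processing, had 0, 1 and 1 counts at 72 hpf, against 96, 176 and 18 at 48 hpf. Irx5a, an Iroquois homeodomain factor with a role in the heart, had 1, 1 and 0 counts at 72 hpf, against 74, 93 and 11 at 48 hpf, and it overlaps a gene on the opposite strand that summed to 13 counts at 48 hpf. Tcf7, a partner of β-catenin, had 0, 0 and 0 counts at 72 hpf, against 13, 29 and 15 at 48 hpf. These 3 genes, like tbx1, had their highest normalized count in 48 hpf replicate 2. The homeodomain genes gbx1 and barx1 had 0 counts in every 72 hpf library, and at 48 hpf gbx1 had 7, 11 and 32 counts and barx1 had 4, 45 and 29, so both came close to the limit in replicate 1.

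Secreted signals and their receptors numbered 8. Among ligands, sema3c (chromosome 4, 22613625 to 22652944), a guidance cue that acts in outflow tract formation in mice, had 0, 0 and 0 counts at 72 hpf, against 72, 82 and 45 at 48 hpf. Its 48 hpf level was 14.0 ± 1.61 CPM (SD, n = 3), and its normalized counts spanned 1.24-fold, the smallest span among the 78 members with 20 or more counts in every 48 hpf library. Bmp6 had 0, 0 and 0 counts at 72 hpf, against 65, 47 and 22 at 48 hpf, and gdf11, another ligand of the TGF-β superfamily, had 0, 0 and 0 counts at 72 hpf, against 49, 97 and 13 at 48 hpf. Bmp2a reached the floor of 3 counts in 72 hpf replicate 2, with 0, 3 and 0 counts at 72 hpf, against 11, 77 and 20 at 48 hpf.

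Receptors for guidance cues were found on the other side of this signalling. Nrp2b, a neuropilin that binds class 3 semaphorins and Vegf, had 1, 1 and 1 counts at 72 hpf, against 11, 267 and 102 at 48 hpf, so that its 48 hpf normalized counts spanned 20.3-fold. Plxnc1, a plexin that binds semaphorins, had 1, 3 and 2 counts at 72 hpf, against 41, 114 and 115 at 48 hpf. With 6 counts it was among the genes with the most 72 hpf counts in the group. Il17rd, a membrane inhibitor of Fgf signalling, had 0, 1 and 0 counts at 72 hpf, against 25, 24 and 14 at 48 hpf. Of 18 Vegf and Tie receptors and ligands, nrp2b alone was in the group, 6 were at 3 or fewer counts in all 72 hpf libraries, and 2 were in all 48 hpf libraries.

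Matrix and secreted protease genes were 5, and each had 0 counts in all 72 hpf libraries and its lowest normalized 48 hpf count in replicate 1. Of all 202 genes, 101 had 0 counts in all 72 hpf libraries and 93 were lowest in 48 hpf replicate 1. Plaua, a urokinase-type plasminogen activator, had 40, 172 and 97 counts at 48 hpf. It overlaps chuk on the opposite strand, which summed to 1740 counts at 72 hpf, against 1928 at 48 hpf. Prss35, a secreted serine protease relative, had 22, 56 and 32 counts at 48 hpf and likewise overlaps an expressed gene, me1. Frem1b, a matrix protein of the epithelial basement membrane, had 4, 334 and 5 counts at 48 hpf, a span of 69.9-fold that was the widest in the group and rested on 48 hpf replicate 2. Adamtsl2 had 4, 67 and 104 counts at 48 hpf.

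Epithelial genes were 5. Icn, a calcium-binding protein of fish skin, had 0, 0 and 0 counts at 72 hpf, against 62, 51 and 10 at 48 hpf, and fa2h, a fatty acid hydroxylase of myelin and skin lipids, had 0, 0 and 0 counts at 72 hpf, against 30, 127 and 14 at 48 hpf. CAMSAP3, which anchors microtubule minus ends in epithelia, had 1, 2 and 0 counts at 72 hpf, against 66, 63 and 84 at 48 hpf. The list of 14 skin and other epithelial markers had 3 genes at 3 or fewer counts in all libraries of either stage, and its sum varied more within the stages than between them (93.8, 801 and 1532 CPM at 72 hpf, and 1377, 522 and 269 CPM at 48 hpf).

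Of endothelial and endocardial genes, fli1a had been left out by name. Rasip1 (chromosome 16), a Ras-binding protein needed for vessel lumens, was the only gene among the 202 of the 56 in a list of such genes, with 2, 0 and 0 counts at 72 hpf, against 61, 52 and 9 at 48 hpf. Of the list, 21 genes were at 3 or fewer counts in all 72 hpf libraries, against 7 in all 48 hpf libraries, and its sum was 1297, 1672 and 1241 CPM at 72 hpf and 1899, 2620 and 1717 CPM at 48 hpf. The whole table, too, had more genes at 3 or fewer counts throughout 72 hpf than throughout 48 hpf. Yrk, also of the endothelial and endocardial list and among the genes just outside the floor, had 0, 4 and 0 counts at 72 hpf, against 74, 191 and 199 at 48 hpf. Kdrl, klf2a and aplnra had 73 or more counts in every library of both stages.

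Other markers in the group came from further lists. Foxc1a, named above, was the only member among 21 fibroblast and smooth muscle list genes. Of these genes, 4 were at 3 or fewer counts in all 72 hpf libraries, against 2 in all 48 hpf libraries. Their sum was 864, 2702 and 3153 CPM at 72 hpf and 2091, 2203 and 1232 CPM at 48 hpf, so the stages overlapped. Fgl2a, a fibrinogen-like protein listed here with thrombocyte genes and also known from macrophages, had 0, 0 and 0 counts at 72 hpf, against 9, 313 and 160 at 48 hpf. Of the 10 thrombocyte list genes, 6 were at 3 or fewer counts in all 72 hpf libraries, against 2 in all 48 hpf libraries. The list summed to 53.5, 88.7 and 128 CPM at 72 hpf, against 160.1, 218.7 and 156.5 CPM at 48 hpf. The other 4 genes were above 3 counts in every 72 hpf library. Among these, itgb3b and nfe2 were at 68 to 164 and 16 to 34 counts at 72 hpf, against 127 to 191 and 69 to 81 counts at 48 hpf. Tcf7 was the only lymphoid list gene in the group, and the lymphoid list was sparse throughout, with summed levels of 21.5 to 28.6 CPM at 72 hpf and 14.6 to 44.7 CPM at 48 hpf. Lists of atrial, ventricular, atrioventricular canal, pacemaker and epicardial cells, of erythroid cells, of neural crest, of liver and gut, and of Notch genes had no member. In none of the 21 lists was a gene above 3 counts throughout 72 hpf and at 3 or fewer throughout 48 hpf. Only 23 of the 23000 genes in the table were, so nothing is read from this absence.

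The 129 genes without an assigned role held the rest, 9.47, 17.3 and 11.2 CPM of the 72 hpf libraries and 818, 991 and 1571 CPM of the 48 hpf libraries. Grna (chromosome 3, 29914427 to 29941357), a progranulin gene, had 0, 1 and 0 counts at 72 hpf, against 91, 150 and 400 at 48 hpf. Stoml3b, a stomatin-like membrane protein whose mouse counterpart tunes mechanosensitive channels in sensory neurons, had 0, 0 and 1 counts at 72 hpf, against 185, 78 and 289 at 48 hpf, and it overlaps vps36 on the opposite strand. Tmsb2, a thymosin that binds actin monomers, had 0, 0 and 0 counts at 72 hpf, against 50, 255 and 78 at 48 hpf. Like the leukocyte set, most of the unassigned genes (71 of 129) were highest in 48 hpf replicate 3. Over all genes above 3 counts in every 48 hpf library, this share was 40.9%.

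Rapgef5b, an exchange factor for the small GTPase Rap, had 0, 1 and 0 counts at 72 hpf, against 47, 117 and 85 at 48 hpf. The Ras association family gave 4 genes: rassf2b, rassf4a, rassf6 and rassf11 had 0 to 2 counts in each 72 hpf library and 4 to 37 in each 48 hpf library.

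The enzymes included gcnt4a, which branches O-linked glycans, with 0, 0 and 0 counts at 72 hpf, against 78, 57 and 56 at 48 hpf, and acss1, which makes acetyl-CoA in mitochondria, with 0, 1 and 0 counts at 72 hpf, against 51, 48 and 75 at 48 hpf. Among genes known only by clone names, si:zfos-741a10.3 had 0, 0 and 1 counts at 72 hpf, against 88, 121 and 93 at 48 hpf, and si:dkey-19b23.8 had 1, 0 and 0 counts at 72 hpf, against 74, 120 and 64 at 48 hpf. Both were even at 48 hpf, with levels of 21.8 ± 3.28 and 18.1 ± 2.90 CPM (SD, n = 3 each). Si:ch211-26b3.4 and si:ch73-217n20.1 had at most 3 and 1 counts in a 72 hpf library, and at least 55 and 52 in each 48 hpf library.

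**Figure D5:**
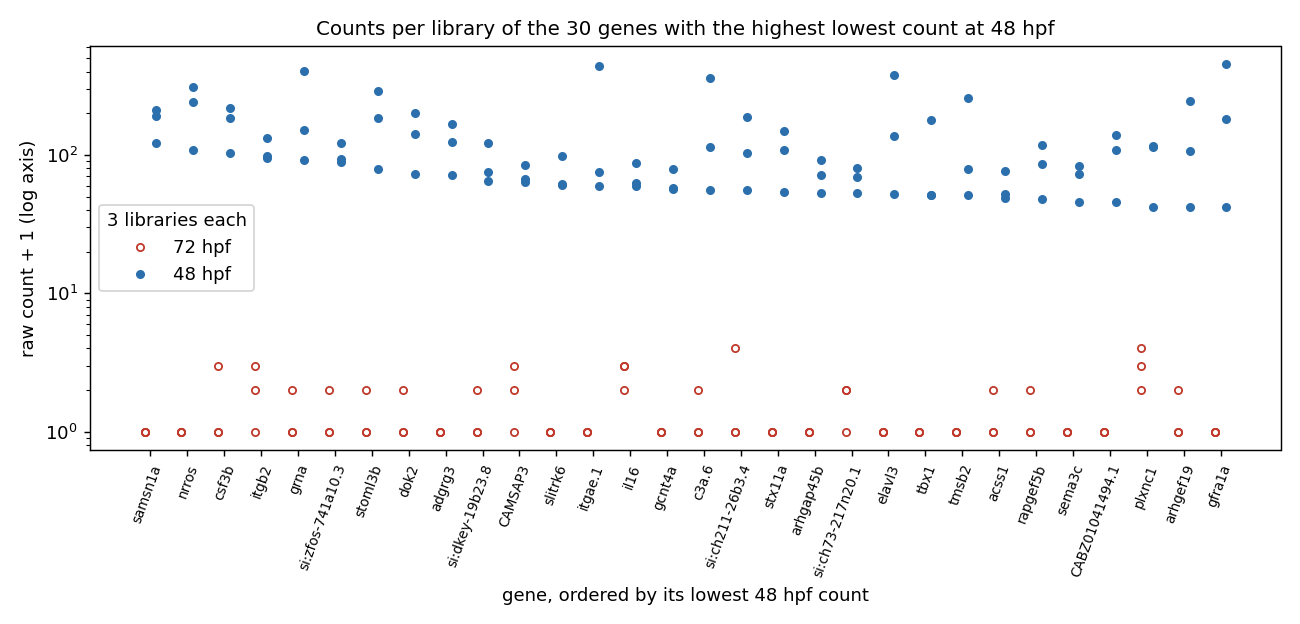
Raw count + 1 on a log axis (vertical) in each library of the 30 genes with the highest lowest count at 48 hpf (horizontal, in that order), with 72 hpf as open points on the left and 48 hpf as filled points on the right of each gene. No 72 hpf library exceeds 3 counts, and the lowest 48 hpf counts run from 121 for samsn1a to 41 for gfra1a.

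The replicates of 48 hpf differed widely on these genes. The normalized counts of a gene spanned a median of 3.86-fold over the 3 libraries, with 165 of the 202 genes above 2-fold, 98 above 4-fold and 26 above 10-fold. Among the 125 members with a mean normalized 48 hpf count of 20 to 100 the median span was 4.55-fold, against 2.701-fold for all 3062 genes of that range present in every 48 hpf library. From 100 to 400, these were 4.75-fold for 19 members and 1.71-fold for 5280 genes. As a description, with genes as points that are no independent replicates, the Spearman correlation between pairs of 48 hpf libraries was 0.40 to 0.56 over the members and 0.86 to 0.93 over all genes present at 48 hpf. A narrower range of levels among the members also lowers such a value. In 15 of the 202 genes the 3 libraries lay within 1.5-fold, among them slitrk6, sema3c, il17rd and si:zfos-741a10.3.

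By annotation, 188 of the 202 genes were protein coding (93.1%, against 97.2% of all genes present at 48 hpf), 7 were lincRNAs, 4 processed transcripts, 2 pseudogene models and 1 a snoRNA. The lincRNA with the most counts, BX649485.1 on chromosome 22, had 0, 1 and 0 counts at 72 hpf, against 61, 36 and 130 at 48 hpf. A KEGG term was attached to 17 genes (8.42%, against 27.9% of all genes present at 48 hpf), and genes with any of 3 KEGG terms had been removed. Chromosomes 16 and 22 held the most genes, with 15 each (7.43%, against 4.31% and 3.66% of all genes present at 48 hpf). Of the 202 genes, 31 overlap another gene of the table, a count that was not taken over all genes. Among those named above, samsn1a, nrros and tbx1 overlap genes on the opposite strand that summed to at most 12 counts at either stage, while gpr183a overlaps clybl, which summed to 1473 counts at 72 hpf, against 1445 at 48 hpf.

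A few members lay side by side, within 100 kb. Besides c1qb and c1qc, a run on the minus strand of chromosome 1 held a gene named MFAP4 (59094416 to 59096190), si:zfos-2330d3.7, si:ch1073-110a20.2 and CAMSAP3 (59172744 to 59176949). At 72 hpf their counts were 0, 3 and 0 for MFAP4, 0 in every library for both clone-named genes, and 1, 2 and 0 for CAMSAP3, and at 48 hpf 5, 37 and 34, 30, 46 and 52, 8, 43 and 92, and 66, 63 and 84. The first 3 were lowest in 48 hpf replicate 1, as CAMSAP3 was not. The symbol MFAP4 belongs to several genes of this region, 1 of which missed the floor with 0, 4 and 0 counts at 72 hpf, against 27, 132 and 124 at 48 hpf. The paper's processing removed reads that mapped to several places, so no read was counted for several copies. What this did to the counts of these copies was not tested. Both genes named si:ch211-283g2.2 on chromosome 5 lie 3774 bases apart, with 0 counts at 72 hpf, against 9, 37 and 20 counts and 8, 47 and 19 counts at 48 hpf. Ccl34b.1 lay beside si:dkey-25o1.7 (0, 0 and 0 counts at 72 hpf, against 6, 16 and 18 at 48 hpf), and si:ch211-191c10.1 beside si:ch211-241f5.3, both with 0 counts at 72 hpf, against 10, 11 and 53 counts and 40, 12 and 121 counts at 48 hpf.

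The limits cut through a continuum. Just inside the lower limit at 48 hpf, 26 genes had a lowest 48 hpf count of 4, among them tmsb (0, 0 and 0 counts at 72 hpf, against 4, 6 and 5 at 48 hpf) and si:dkeyp-35e5.9 (2, 3 and 2 counts at 72 hpf, against 6, 6 and 4 at 48 hpf). Just outside it, 41 genes at 3 or fewer counts throughout 72 hpf had a lowest 48 hpf count of 3, among them myl10 (0, 3 and 0 counts at 72 hpf, against 516, 3 and 25 at 48 hpf), lcp2a (0, 0 and 0 at 72 hpf, against 3, 64 and 177 at 48 hpf) and alox5a (0, 2 and 0 at 72 hpf, against 49, 3 and 61 at 48 hpf). Just inside the floor at 72 hpf were 24 genes with a highest 72 hpf count of 3, among them AL954715.2 (3, 2 and 2 at 72 hpf, against 8, 6 and 5 at 48 hpf), whose pooled ratio of 2.43 had an interval of 0.98 to 6.84, and mt2, a metallothionein (3, 0 and 3 at 72 hpf, against 20, 10 and 33 at 48 hpf). Another 27 genes stood just outside with a highest 72 hpf count of 4, among them phactr3b (4, 0 and 0 at 72 hpf, against 4, 26 and 20 at 48 hpf).

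A fit over all genes gives the background for these values. With edgeR's quasi-likelihood test, 0 of 16073 tested genes were lower at 72 hpf by 1.5-fold or more with a Benjamini-Hochberg adjusted p-value under 0.05 (0.0%), while 904 were lower at an unadjusted p-value below 0.05 (5.62%). DESeq2 called 437 of 15777 genes lower (2.77%). Of the 202 genes, 177 passed the filter on low counts, of which edgeR called 0 and placed 157 below an unadjusted 0.05, and DESeq2 called 131 of the 173 it tested. Because the genes were chosen on this contrast, nothing is read from their counts beside the background. The fitted log2 fold changes (72 hpf over 48 hpf) had a median of −7.38 over the 177 members and −0.02 over all 16073 genes. Fitted values of genes at 0 depend on a prior count. From the ratios of mean CPM, with the genes at 0 set to the floor of 3 counts per library, the median over all 202 was −4.28, and the bounds for the 101 genes at 0 ran from at least 1.5-fold to at least 70.6-fold lower, with a median of 11.5.

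Without the filter on low counts, edgeR called 9 genes lower at 72 hpf, and 6 of these were exactly the genes left out of the group by name. With those 6 left out by name, none of the 202 genes was among the 9. The removals thus shaped this outcome, and nothing is read from it.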

How the data were processed

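RNA of sorted atrial CMs was sequenced at 48 and 72 hpf with the SMART-Seq HT kit, in 3 libraries per stage. Per the submitters' processing notes and the methods, the authors used Trimmomatic 0.39 for trimming, STAR 2.7.10a for alignment to danRer11, Picard 3.0.0 to remove duplicates and featureCounts 2.0.4 for counting on exons. Multi-mapping, ribosomal and mitochondrial reads were also removed, and reads that overlapped several genes were not counted. The deposited values are whole-number counts per gene, not normalized. The strand setting of the counting is not given in the sources used here. The table lists 23000 genes, 1678 of them with no count, and 0 further columns of values per library.

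Stages were compared over all genes with edgeR 4.0.16 in R 4.3.3 (TMM, robust quasi-likelihood fit, Benjamini-Hochberg adjustment), on genes whose normalized counts averaged more than 5. Alternatives were DESeq2 1.42.0, other size factors and filters, other limits, the replicate number as a block, replicates 1 and 2 only, and each library left out. The code was tested on simulated data. Normalized counts are scaled by TMM effective library sizes, and spans, shares and the order of libraries use them. A bound for a gene at 0 compares its mean 48 hpf CPM with 3 counts in each 72 hpf library. It does not cover the spread between the 48 hpf libraries. Other ratios pool the counts of a stage, with exact 95% intervals that cover counting error only.

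The text names the 30 members with the highest lowest 48 hpf count, members in a marker or pathway list, genes next to the limits, neighbours within 100 kb and examples of gene families and roles, apart from a few that are not reported here. The members, lists and tests were chosen with earlier results of these data known. The roles of 73 members were assigned by hand from general knowledge after their values were seen. Levels are not compared between genes, because exon lengths were not used here.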

Additional observations from a re-analysis of the deposited data

How the results depend on the processing

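The number of genes depended on the limits. It was 202 as reported, 101 when 0 counts were required in every 72 hpf library, 382 when up to 10 were allowed, and 115 or 74 when more than 10 or more than 20 counts were required at 48 hpf. Floors of 1 and 5 counts (152 and 254), more than 5 counts at 48 hpf (159), counts scaled by library total or by TMM effective size (197 by either) and no removals (213) stayed within 1.5 times. With 1 library left out the number was 253 to 549, as fewer libraries had to meet the limits: 324, 468 and 253 without 72 hpf replicates 1, 2 and 3, and 329, 317 and 549 without 48 hpf replicates 1, 2 and 3. With replicates 1 and 2 only it was 694. The count of leukocyte list genes with each library left out was added after seeing the data.

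Genes called lower at 72 hpf were 0 with edgeR, 437 with DESeq2 and 9 with no filter on low counts, where more genes were tested. The count was 0 under each other fit, leaving out any library and the replicate block included. Same-numbered libraries of the stages showed little joint deviation (r = −0.01, 0.09 and 0.01 over genes). Whether they shared a sorting session was not tested. Under the replicate block the median log2 fold change of the members was −7.27. Under all alternatives run that median was −7.79 to −7.05. At the depth of these libraries 3 counts are up to 0.84 CPM.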

Other observations

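The 23 genes with the stages exchanged, above 3 counts in each 72 hpf library and at 3 or fewer in each 48 hpf library, held none of the listed cell type markers. With only 23 of the 23000 genes in this set, nothing is read from that absence. The most counted were megf6b, with 89, 192 and 130 counts at 72 hpf, against 1, 2 and 0 at 48 hpf, gja5a, a connexin gene, with 51, 79 and 162 counts at 72 hpf, against 0, 1 and 1 at 48 hpf, and pls1, an actin-bundling plastin, with 42, 68 and 64 counts at 72 hpf, against 2, 3 and 0 at 48 hpf. Rundc3aa had 35, 51 and 36 counts at 72 hpf, against 0, 0 and 0 at 48 hpf, and slc8a2a, a sodium-calcium exchanger, had 32, 37 and 34 counts at 72 hpf, against 0, 0 and 1 at 48 hpf. Those 5 are the genes of this set with 20 or more counts in each 72 hpf library, chosen after their values were seen.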
